A study of Mus musculus with 6 samples.

Results

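SLK, the Ste20-like kinase, its closest relative STK10 and 8 genes of proteins that are substrates or partners of SLK, or that work with the ezrin family, were followed through a comparison of SLK-knockout with wild-type mouse cells. The 10 genes were fixed by name: Slk and Stk10 for the kinases, Ezr, Rdx and Msn for ezrin, radixin and moesin, Nf2 for merlin, Slc9a3r1 for the scaffold EBP50, Ldb1 and Ldb2 for the LIM-domain-binding cofactors, and Pxn for paxillin. All 10 were measured, out of 22180 gene symbols tested. They were read by 11 probe sets, of which 10 were used, because Msn had a second, dim probe set.

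The cells were lines transformed by NeuNDL, an activated Neu (ErbB2) receptor, and were grown untreated in serum-containing medium with a mammary epithelial supplement. There were 3 arrays of cells labelled SLK wild-type and 3 of cells labelled SLK knockout, and NeuNDL was common to both groups. The series speaks of cell lines sampled at passages 9, 19 and 29, but the labels tie no passage, line or clone to an array, so the p-values measure the spread between these samples, which may be technical. The sources used here do not say how SLK was deleted or where the Slk probes lie relative to the deletion.

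SLK and STK10 are serine/threonine kinases of the germinal centre subgroup of the Ste20 family. They phosphorylate ezrin, radixin and moesin (the ERM proteins) on a threonine near the carboxyl terminus, which opens these proteins so that they tie actin filaments to the plasma membrane. SLK is also known for its part in focal adhesion turnover and cell migration, where paxillin is a substrate, and it binds the LDB cofactors. These are mostly steps of phosphorylation and binding. An expression array reads transcripts, so neither kinase activity nor phosphorylation was measured here.

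Values are log2 signals of a probe set. Differences are knockout minus wild-type on the log2 scale, each with the standard error (SE) and adjusted p of a limma fit over all 22180 genes with Benjamini-Hochberg adjustment, called at 0.05. In that fit 97 genes, or 0.437% of those tested, were called. The median value of an array ranged from 3.93 to 3.97, and no array stood apart from the rest in its correlation with the others over probe sets (Pearson's r from 0.990 to 0.994). Of 10 luminal epithelial markers 7 lay above the median tested gene (4.39), among them Krt8, Krt18 and Epcam, and so did 4 of 7 basal markers, among them Krt14 and Acta2, while the basal factor gene Trp63 was dim at 2.93 to 3.21. Of 8 fibroblast markers 7 lay above it too, among them Pdgfra and Col1a1. Of 7 leukocyte markers only Cd68 and of 6 endothelial markers only Kdr did, and Ptprc, which defines leukocytes, had values of 2.03 to 2.33. In a bulk culture, fewer cells of a type and less RNA per cell cannot be told apart.

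Among the 10 genes Slk alone passed the threshold. Slk fell about 2.15-fold, while the remaining 9 had differences between -0.12 and 0.14, with 95% intervals that all lay between -0.27 and 0.27. On a linear scale those bounds are ratios of 0.831 and 1.21. The count of members called was thus 1 lower and 0 higher, where 0.113% of all genes were called lower and 0.325% higher. Members other than Slk with an unadjusted p under 0.05 in the limma fit numbered 1 of 9, beside 10.2% of all genes. The median difference of the 9 was 0.0094, against 0.0038 for all genes tested.

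Slk had values of 8.21, 8.30 and 8.34 on wild-type arrays 1 to 3 and of 7.14, 7.21 and 7.20 on knockout arrays 1 to 3. The lowest wild-type array stood 1.00 log2 units above the highest knockout array, while the arrays of a genotype spanned 0.13 (wild-type) and 0.06 (knockout). The difference was -1.10 (SE 0.06, adjusted p = 0.0021). By size of fall Slk ranked 2 of 22180 genes, and by p it ranked 4. The labelled genotypes and the Slk signal went the same way on all 6 arrays. On the knockout arrays the signal was lower but not lost, since it stayed above the median tested gene (4.39). The source of the remaining signal was not tested.

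**Figure D1:**
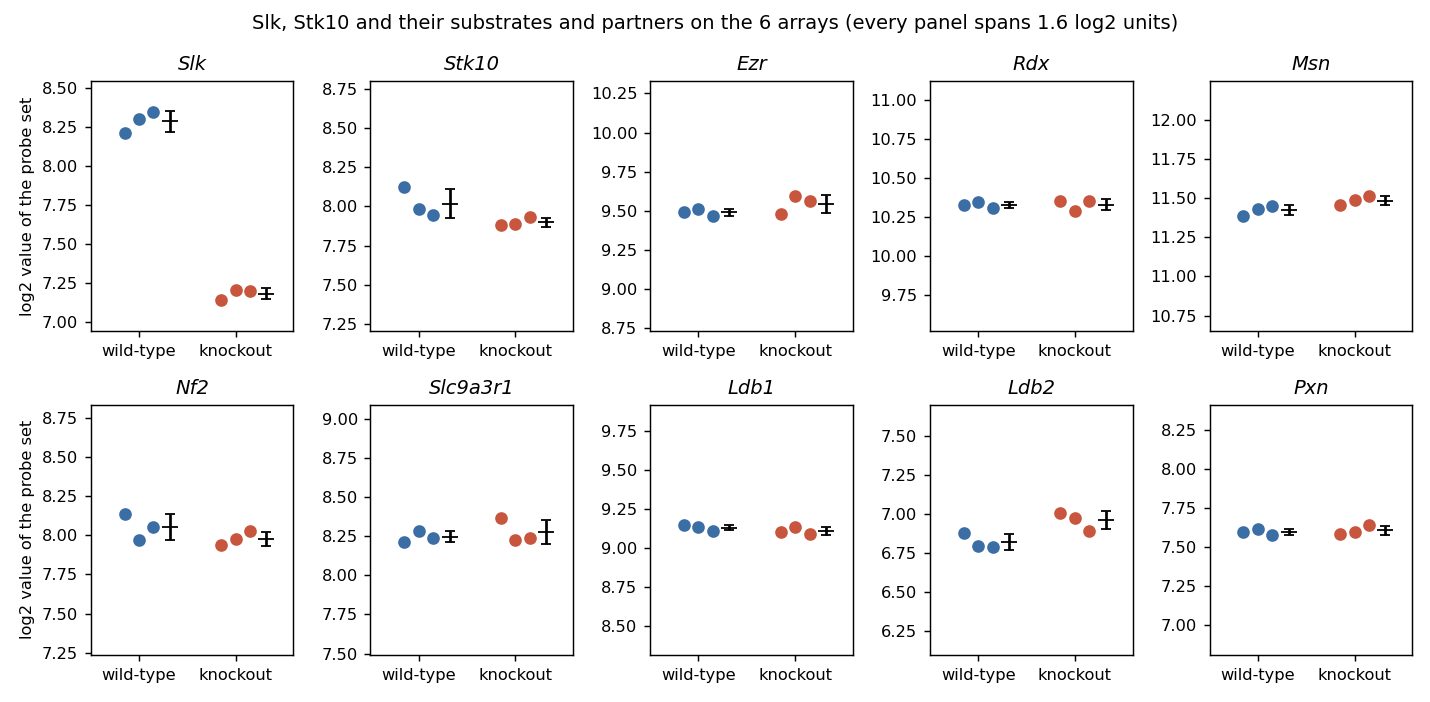
Log2 values of the probe sets of the 10 genes on each array, with wild-type in blue, knockout in red and the mean with its SD (n = 3) in black beside each group. Every panel spans the same number of log2 units, so that the 1.10 difference of Slk can be set beside the differences of the others, which lie between -0.12 and 0.14.

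STK10 shares the ERM proteins with SLK as substrates and is most abundant in lymphocytes. Stk10 had values of 8.12, 7.98 and 7.95 in wild-type cells and of 7.88, 7.89 and 7.93 in knockout cells. The groups did not overlap, but the gap between them was 0.01, and wild-type array 1 was the highest of all. The difference was -0.12 (SE 0.06, adjusted p = 0.60, 95% interval -0.27 to 0.03), and -0.06 without wild-type array 1. The Slk difference was the larger in size by 0.98 log2 units, with no overlap between the genotypes in the array-by-array difference of the pair (exact two-sided permutation p = 0.10, the smallest that 3 arrays against 3 allow, and 0.25 adjusted over 5 pairs of related genes). All 5 pairs were added after values were seen, so the comparison adds no evidence to the fall of Slk.

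The 3 ERM genes encode the proteins that SLK and STK10 switch on at the cell cortex. Ezr, the ezrin gene, had values of 9.49, 9.51 and 9.47 in wild-type and 9.48, 9.59 and 9.56 in knockout cells. The groups overlapped, and the difference was 0.05 (SE 0.05, adjusted p = 0.79, 95% interval -0.07 to 0.18), which leaving out 1 array moved between 0.03 (without knockout array 2) and 0.09 (without knockout array 1). Rdx, the radixin gene, had 10.33, 10.35 and 10.31 against 10.35, 10.29 and 10.35. All 6 arrays lay within 0.06 of each other, and the difference was 0.0014 (SE 0.05, adjusted p = 0.99, interval -0.11 to 0.12).

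Msn, the moesin gene, had 11.39, 11.43 and 11.45 in wild-type and 11.46, 11.49 and 11.51 in knockout cells. Every knockout array was above every wild-type array, by a gap of only 0.0034, and the difference of 0.06 (SE 0.05, adjusted p = 0.73, interval -0.05 to 0.18) was not past the threshold. Its second probe set lay between 1.01 and 1.73 on all arrays and gave -0.26 (limma over all probe sets, SE 0.15, adjusted p = 0.75). That probe set lay near the lowest values of the arrays, and no direction is read from it. Differences between the 3 genes were compared pair by pair: Msn exceeded Rdx by 0.06 (exact permutation p = 0.20), Ezr exceeded Rdx by 0.05 (p = 0.40) and Msn exceeded Ezr by 0.0089 (p = 0.90), and after adjustment over the 5 pairs the p-values were 0.33, 0.50 and 0.90.

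Merlin and EBP50 are the closest associates of the ERM proteins on this list. Merlin is a relative of the ERM proteins that acts as a tumour suppressor upstream of the Hippo kinases, and EBP50 is a PDZ scaffold that docks on the opened ERM proteins. Nf2 had 8.13, 7.97 and 8.05 in wild-type and 7.94, 7.97 and 8.03 in knockout cells. The groups overlapped (difference -0.07, SE 0.06, adjusted p = 0.76, interval -0.22 to 0.07). As with Stk10, wild-type array 1 was the highest of the 6, and without it the difference was -0.03, while it was -0.11 without wild-type array 2. Slc9a3r1 had 8.21, 8.29 and 8.24 against 8.37, 8.23 and 8.24. Knockout array 1 alone lay above the wild-type arrays, and the difference was 0.03 (SE 0.06, adjusted p = 0.91, interval -0.11 to 0.17).

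LDB1 and LDB2 are transcriptional cofactors that bring LIM-homeodomain and LMO proteins together, and both are known to bind SLK. Ldb1 had 9.15, 9.13 and 9.11 in wild-type and 9.10, 9.14 and 9.09 in knockout cells. Its groups overlapped, with a difference of -0.02 (SE 0.05, adjusted p = 0.92, interval -0.13 to 0.09). Ldb2 had 6.88, 6.79 and 6.79 against 7.01, 6.98 and 6.89. Every knockout array lay above every wild-type array, although knockout array 3 exceeded wild-type array 1 by just 0.01. The difference of 0.14 (SE 0.06) had an unadjusted p of 0.047 and an adjusted p of 0.48 in the limma fit, and its interval ran from 0.0025 to 0.27.

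Ldb2 had the largest difference of the 9 genes other than Slk, in absolute size, and 76.2% of all genes tested had a smaller one. The Ldb2 difference exceeded that of Ldb1 by 0.16 (exact permutation p = 0.10, 0.25 adjusted over the 5 pairs). In all, 4 of the 10 genes had groups that did not overlap, Slk and Stk10 below and Msn and Ldb2 above, beside 16.9% of all genes (8.1% with the knockout below and 8.79% with it above). The gap between the groups was at most 0.015 for Stk10, Msn and Ldb2.

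Paxillin is a focal adhesion adaptor whose phosphorylation by SLK has been tied to adhesion turnover. Pxn had 7.60, 7.62 and 7.58 in wild-type and 7.58, 7.60 and 7.64 in knockout cells. The groups overlapped, and the difference was 0.0094 (SE 0.05, adjusted p = 0.97, interval -0.10 to 0.12). Over the 10 genes the SD within a genotype ranged from 0.02 (Ldb1, wild-type) to 0.09 (Stk10, wild-type).

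**Figure D2:**
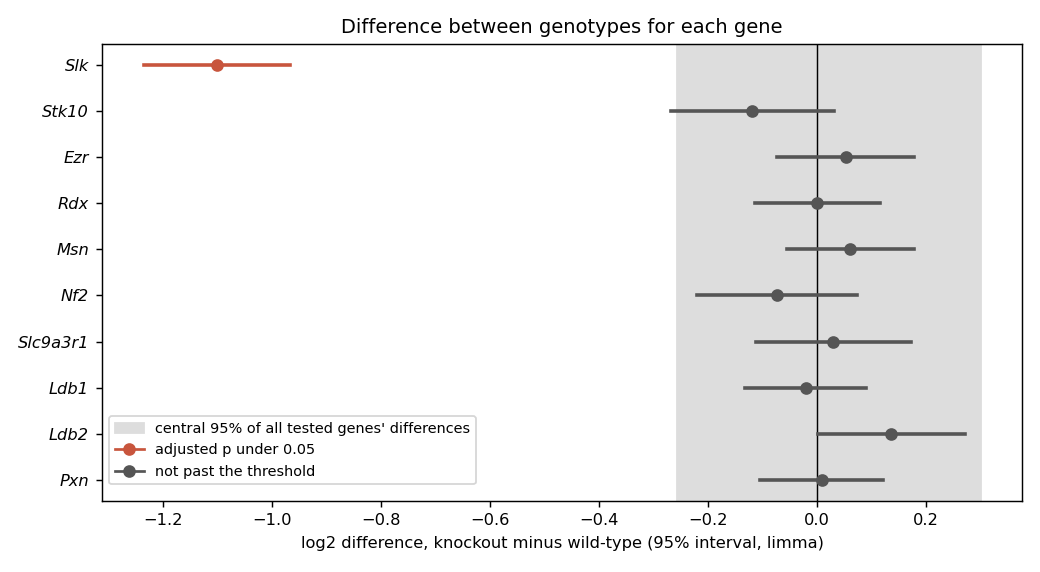
Log2 difference between genotypes (knockout minus wild-type) for each gene, with points for the estimate and lines for the 95% interval of the limma fit. The grey band holds the central 95% of the differences of all tested genes, from -0.26 to 0.30, and the estimate for Slk, -1.10, is the only one outside it.

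Genes that work with these proteins were grouped in 7 lists of partners and regulators, with 100 different genes, of which 92 were measured. Of the 92, 2 rose and 0 fell in the limma fit (0.437% of all genes were called), 13 had an unadjusted p under 0.05, beside 10.2% of all genes, and 22 had groups that did not overlap, beside 16.9% of all genes. As shares of the 92 these are 2.17%, 14.1% and 23.9%. The lists were chosen with earlier results of these data known, so no enrichment is read from these shares. The rising genes were L1cam and Parvb. The median difference over the 92 genes was -0.01, against 0.0038 for all genes tested.

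Membrane and PDZ partners of the ERM proteins had 1 of 14 measured genes higher (7.14%, beside 0.437% of all genes called) and 0 lower. The median difference was 0.02. In the limma fit 4 of the 14 had an unadjusted p under 0.05 (28.6%, beside 10.2% of all genes). Groups did not overlap for 6 of them (42.9%, beside 16.9% of all genes). L1cam encodes a neuronal-type immunoglobulin adhesion molecule whose cytoplasmic tail binds ezrin, and it had values of 4.84, 4.71 and 4.67 in wild-type and 5.86, 5.69 and 5.88 in knockout cells. All knockout arrays were well above the wild-type arrays, and L1cam rose 2.10-fold (difference 1.07, SE 0.08, adjusted p = 0.0055). With a block for the replicate number its limma adjusted p was 0.070, not past the threshold. Cftr, the chloride channel that EBP50 holds at the apical membrane, had 5.12, 5.20 and 5.26 against 4.94, 4.90 and 4.63 (difference -0.37, adjusted p = 0.25 by limma). Podxl, the sialomucin podocalyxin that is linked to ezrin through EBP50, was singled out after its values were seen. It had 7.08, 7.09 and 7.11 against 7.27, 7.24 and 7.31, groups that did not overlap, with a difference of 0.18 (adjusted p = 0.26 by limma).

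Partners and paralogues of paxillin had 1 of 17 measured genes higher (5.88%, beside 0.437% of all genes called) and 0 lower. The median was -0.0054. In the limma fit 3 of the 17 had an unadjusted p under 0.05 (17.6%, beside 10.2% of all genes). Groups did not overlap for 5 of them (29.4%, beside 16.9% of all genes). Parvb, the gene of beta-parvin, an actin-binding adaptor of the integrin-linked kinase complex, had 6.29, 6.39 and 6.21 against 7.26, 7.40 and 7.37. It rose 2.07-fold (difference 1.05, SE 0.07, adjusted p = 0.0042), and the other parvins in the list were not called. With a block for the replicate number the limma adjusted p of Parvb was 0.070, not past the threshold. Src encodes a kinase that acts on paxillin and is known to act upstream of SLK, and it had 7.74, 7.72 and 7.73 against 8.07, 7.95 and 7.98. Its groups did not overlap, and the difference of 0.27 (SE 0.05) had an adjusted p of 0.13 in this limma fit. That value passed the threshold where the dimmest 50% of genes were left out (0.021) or an intensity trend was fitted (0.0073). It did not pass in 13 of 16 alternative fits. The limma adjusted p was 0.36 where every probe set was tested alone and 0.32 with the replicate block.

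Kinases, RhoA input and phosphatase subunits that act on ERM proteins had 0 of 12 measured genes called by limma. Their median was 0.03, and 1 had an unadjusted p under 0.05, beside 10.2% of all genes. Prkca, a protein kinase C gene, had 8.66, 8.74 and 8.69 against 8.82, 8.86 and 8.83 (difference 0.14, SE 0.05, adjusted p = 0.41). Stk26, a Ste20 kinase that phosphorylates ezrin in polarising epithelial cells, was dim at 2.12 to 2.58 and gave -0.22 (adjusted p = 0.53 by limma). The list of other SLK regulators and substrates likewise had 0 of 7 called by limma, with a median of -0.03, and its smallest p after that of Src belonged to the mitotic kinase gene Plk1 (difference -0.05, adjusted p = 0.78). Src was the 1 gene of that list with an unadjusted p under 0.05, beside 10.2% of all genes.

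Merlin partners had 0 of 12 called by limma and a median of -0.0038. In that fit 2 of the 12 had an unadjusted p under 0.05 (16.7%, beside 10.2% of all genes). Amot, the gene of the merlin-binding angiomotin, had 6.11, 6.04 and 6.02 against 5.90, 5.81 and 5.92 (difference -0.18, adjusted p = 0.34). Wwtr1, which encodes the Hippo-controlled coactivator TAZ, had 8.92, 8.95 and 8.96 against 9.09, 9.09 and 9.07, with a difference of 0.14 (SE 0.05, adjusted p = 0.37 by limma, and 0.049 with an intensity trend). The groups of both genes did not overlap, as for 4 of the 12 in all (33.3%, beside 16.9% of all genes). In 14 of 16 alternative fits Wwtr1 did not pass the threshold.

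LIM-domain and SSBP partners of the LDB cofactors had 0 of 20 called by limma (0 with an unadjusted p under 0.05), and 14 of 20 had a lower mean in knockout cells, where 48.5% of all genes had one. The median was -0.05. The members with the smallest p were the LIM-homeodomain genes Lhx8 (difference -0.23, adjusted p = 0.53 by limma) and Lhx1 (-0.14, adjusted p = 0.63), both dimmer than the median tested gene on every array. Other genes of the list were dim too, among them Lmo3 (mean 2.60) and Lhx5 (3.06), and no direction is read from the count of lower means. Other proteins with the FERM domain that ezrin, radixin, moesin and merlin share had 0 of 13 called by limma (3 with an unadjusted p under 0.05, beside 10.2% of all genes), with a median of 0.0075. Frmd4b had 7.42, 7.53 and 7.38 against 7.71, 7.75 and 7.89 (difference 0.35, SE 0.07, adjusted p = 0.15), and Epb41l3, a membrane-skeleton gene of the band 4.1 family, had 8.08, 8.10 and 8.09 against 7.86, 7.89 and 7.75 (difference -0.26, SE 0.05, adjusted p = 0.17). These went in opposite directions with no overlap between genotypes, and both passed the threshold with the dimmest 50% of genes left out (0.031 for each) or with an intensity trend (0.0092 and 0.011). Neither passed it in the remaining 13 of 16 alternative fits.

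**Figure D3:**
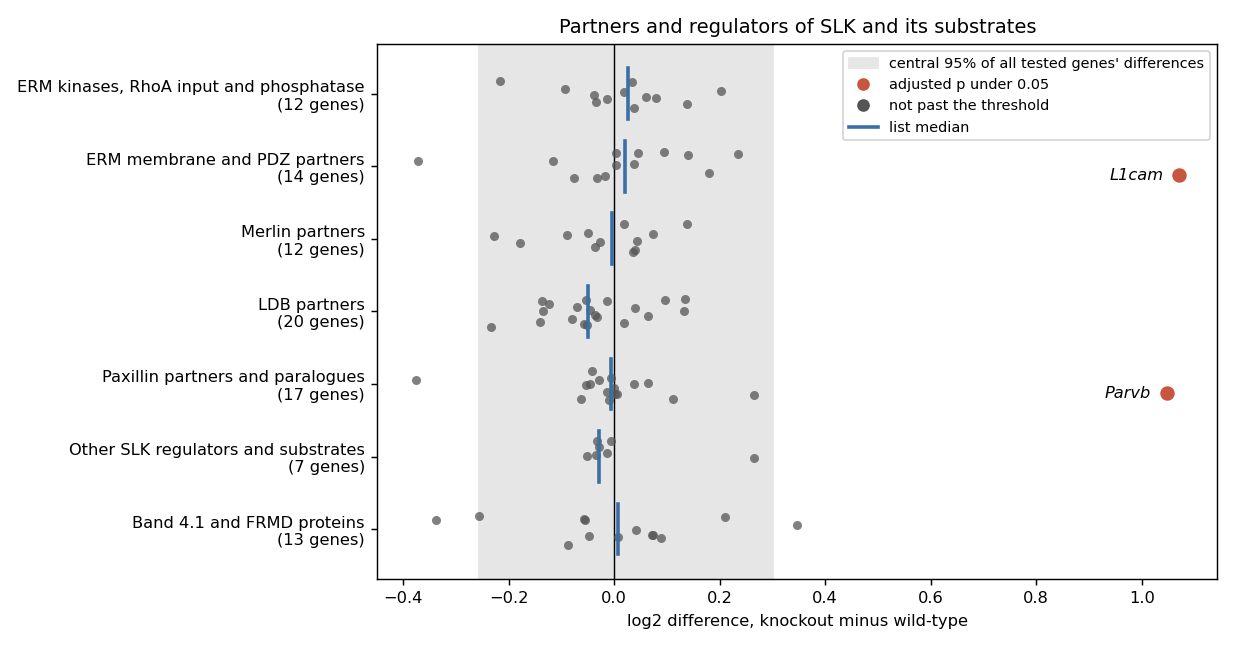
Log2 difference between genotypes for every measured gene of the 7 lists of partners and regulators, one row a list, with the vertical position inside a row carrying no meaning. Called genes are red and named, list medians are blue lines, and the grey band holds the central 95% of all tested genes: L1cam (1.07) and Parvb (1.05) stand apart from the other 90 genes, which lie between -0.38 and 0.35.

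Some marker lists had mean levels that did not overlap between the genotypes. Slk, L1cam and Parvb did not overlap either, with gaps between groups of 1.00, 0.85 and 0.87. A list mean is not comparable with a single gene where the markers of the list go both ways. The gaps of the called markers were 1.12 (Mme, higher), 0.68 (Fabp4, higher), 0.59 (Pdgfrb, lower), 0.58 (Krt14, lower) and 0.40 (Cdh1, lower). Groups did not overlap for 80% of luminal, 87.5% of fibroblast, 40% of adipocyte and 42.9% of basal markers. The shares were 33.3% of endothelial and 14.3% of leukocyte markers, beside 16.9% of all genes. Shares called were 10% of luminal, 12.5% of fibroblast, 20% of adipocyte and 28.6% of basal markers, beside 0.437% of all genes. The mean value of the 10 luminal markers ranged from 7.18 to 7.21 on wild-type and from 7.09 to 7.12 on knockout arrays. The list went both ways: Cdh1 was called lower and 4 markers in all had every knockout array below, while 4 had every knockout array above, among them Krt8 (difference 0.15) and Krt18 (0.14), neither of them called, and the list median was 0.04. The 8 fibroblast markers ranged from 5.997 to 6.05 and from 5.93 to 5.97, with Pdgfrb called lower and 4 markers in all with every knockout array below, while 3 had every knockout array above, among them Dcn (0.43) and Postn (0.37), neither of them called. The 5 adipocyte markers ranged from 3.92 to 3.96 and from 3.99 to 4.14 with Fabp4 (0.92) called higher, but 3 of 5 had a lower mean in knockout cells, the list median was -0.08 and Cidec had every knockout array below the wild-type arrays (-0.31, not called). Adipoq, which defines adipocytes, was dim at 2.55 to 2.89 on all arrays. The mean of the 7 basal markers overlapped between genotypes (5.24 to 5.31 and 5.25 to 5.39), but 3 of the 7 genes did not. Mme was called higher and Krt14 lower, and Acta2 had every knockout array below the wild-type arrays (-0.47, not called). The means of the leukocyte markers (3.53 to 3.61 and 3.58 to 3.69) and of the endothelial markers (3.58 to 3.70 and 3.51 to 3.62) overlapped too. The part of these markers in the results above was not tested.

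The genes beside Slk on its chromosome were read to see whether the fall reached past Slk, a step added after the main values were seen. None of the 4 nearest measured protein-coding genes on either side was called by limma, and none had an unadjusted p under 0.05. Before Slk in chromosome order, Stn1, a telomere maintenance gene, had a difference of 0.11 (adjusted p = 0.60) and Sh3pxd2a, which encodes the podosome scaffold TKS5, had 0.13 (adjusted p = 0.52), each with every knockout array above the wild-type arrays. After Slk, Col17a1, a hemidesmosomal collagen gene, had 0.02 (adjusted p = 0.97) and Sfr1 had -0.06 (adjusted p = 0.82). The farthest of the 8 were Calhm1 at -0.09 and Gsto1, a glutathione transferase gene, at -0.11 (adjusted p = 0.52), the latter with every knockout array below the wild-type arrays by a gap of 0.04. Of all genes tested, 16.9% had groups that did not overlap.

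Genes whose profile over the 6 arrays was nearest to that of Slk were ranked by the root mean square difference between log2 values centred on each gene's mean. The nearest was Eya4, a transcriptional coactivator and phosphatase gene, at 0.09 log2 units. It had 6.91, 6.83 and 6.84 in wild-type and 5.55, 5.70 and 5.75 in knockout cells. Adgrl2 (0.17), Mrgpra9 (0.20), Vtcn1 (0.22) and Pdgfrb (0.23) followed. The measure rests on 6 arrays and on the same genotype contrast as the limma fit, so it adds no evidence to the calls of these genes.

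**Figure D4:**
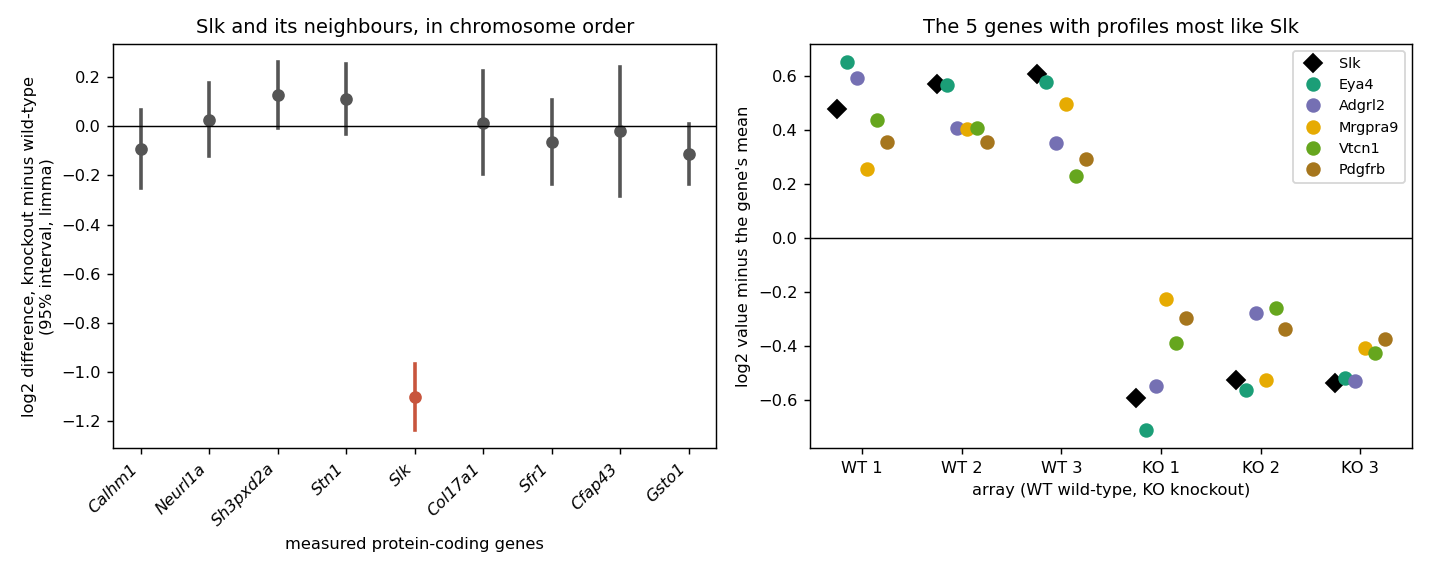
The left panel shows the log2 difference between genotypes with its 95% interval for Slk (red) and the 4 measured protein-coding genes on each side of it, in chromosome order, and Slk is the gene away from 0. The right panel shows log2 values centred on each gene's mean on the 6 arrays for Slk (diamonds) and the 5 genes most like it, all of which lie above 0 on the wild-type and below 0 on the knockout arrays.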

How the data were processed

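The authors deposited 1 table of log2 values for 41345 probe sets on 6 biotin-labelled arrays. The submitters' processing notes name Affymetrix Expression Console 1.4.1.46, and the sources used here give no background correction, normalization, summarisation, genome build or log base. Natural logarithms of 16-bit intensities end at 11.1 and the table reaches 12.4, so values were read as log2. They came without detection calls, so a dim gene was not necessarily silent, and such summaries compress fold changes. Beyond this, the number of arrays limits the precision.

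Names came from GEO's annotation of the platform, which gave 1 symbol to 23521 probe sets, several to 1814 and does not list 16010. For 1082 symbols with more than 1 probe set the brightest over the 6 arrays was kept, which gave 22180 genes. All 10 members matched a RefSeq gene of GRCm38.p6 by identifier. That annotation served only for names and for gene order.

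Groups came from the sample titles. The genotypes were compared in R 4.3.3 by limma 3.58.1 (lmFit, then eBayes, no covariate, no filter, two-sided, Benjamini-Hochberg over all genes, threshold 0.05). SEs and 95% intervals are limma's moderated ones, and SDs are over 3 arrays. The fit was first tested on simulated data. It called 2% of genes changed by 0.25 log2 units, 62% at 0.5, 96% at 1 and 100% at 1.5. A gene that was not called may thus still differ by a small amount. Members and lists were chosen with earlier results of these data known. Named genes were the members, the 2 genes with the smallest p and all called genes of each partner list, and the 5 genes most like Slk. The genes beside Slk, the 5 pairs of related genes and Podxl were added after values were seen. Alternatives covered pairing (a replicate block), scaling (quantile normalization or median centring), a filter on the dimmest 30% or 50% of genes, probe sets averaged per gene or each tested alone, a variance trend with intensity (plain or robust), array weights, and fits without each array.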

Additional observations from a re-analysis of the deposited data

How the results depend on the processing

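Slk stayed past the threshold under all 16 alternatives, with differences from -1.14 to -1.07 and adjusted p up to 0.046, reached with the replicate block. None of the other 9 members passed it under any alternative, the lowest adjusted p being 0.20, and 7 of their 144 values had the other sign. Rdx went to -0.0021 with median centring, and Msn to -0.10 with the mean of its 2 probe sets, of which 1 lies near the lowest values of the arrays. With 1 array left out Rdx ranged from -0.0091 to 0.022, Slc9a3r1 from -0.015 to 0.057 and Pxn from -0.0081 to 0.021.

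The 2 higher and 0 lower partner genes became 4 and 1 without the dimmest 50% of genes, and 5 and 1 with an intensity trend, robust or not. With 1 array left out they were 2 and 0 each time, with adjusted p up to 0.048 for L1cam and 0.035 for Parvb. Same-numbered arrays did not deviate together (r of 0.04, 0.02 and -0.07, where unlike-numbered arrays gave -0.12 to 0.11). With 3 arrays a group this cannot decide whether the replicate numbers pair the samples, and the labels do not say. The replicate block left 0 higher partner genes, with L1cam and Parvb each at adjusted p = 0.070. Over all genes the counts went from 72 higher and 25 lower to 5 and 1 with that block, to 143 and 63 without the dimmest 30%, 202 and 139 without the dimmest 50%, 265 and 176 with a trend, 264 and 179 with a robust trend, and 25 and 4 with every probe set by itself. With 1 array left out they were 13 to 24 higher and 2 to 5 lower. The cause was not tested. Scaling moved the median of all genes from 0.0038 to 0.01 at most. The SEs of the members, 0.046 to 0.063, are limma's moderated ones. They draw on the spread of all genes tested as well as on each gene's own 3 arrays a group.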
